A study of Mus musculus with 3 samples.

Results

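The transcripts described here are those of 10 germ cell and pluripotency genes of the mouse, *Dppa5a*, *Dppa3*, *Pou5f1*, *Nanog*, *Sox2*, *Utf1*, *Zfp42*, *Nanos3*, *Ddx4* and *Dazl*, among 27,994 genes in the count table. They were chosen by their measured levels, since earlier analyses of the same counts had shown them in cluster 3 of the 7 clusters that the authors deposited, so their levels by cluster are a description and no test was made of them. Each was found in the table under 1 Ensembl identifier. Cluster 3 held 239 of 9,562 cells.

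The cells were endothelium from adult hearts of GFP+ mice (12–16 weeks old and female per the study's methods), sorted for GFP, CD31 and VE-Cad and against CD41, CD45, PDGFRA and PDGFRB. Some were used fresh (0 h). The others had been co-aggregated for 24, 48, 72 or 96 h with PDGFRA+ stromal cells (PSCs), sorted from the aorta–gonad–mesonephros (AGM) region of E11.5 *Mesp1*–DsRed+ embryos, and were sorted again as GFP+CD31+VE-Cad+PDGFRA-. Each held 25,000 endothelial cells and 150,000 PSCs, in medium with IL-3, SCF and Flt3L, and tissue of several animals was pooled. All time points were mixed in 3 pools before 10x Genomics 3′ sequencing. The table ties cells neither to a pool nor to a time, only to 1 of 3 library suffixes on their barcodes. It was therefore treated as 1 sample, and values are also given for each of the 3 libraries, whose pool is unknown.

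Primordial germ cells are the embryonic precursors of eggs and sperm. They share with cells of the early embryo a set of pluripotency factors, among them *Pou5f1* (Oct4), *Nanog* and *Sox2*, and lose much of their DNA methylation on the way to the gonad, which arises beside the aorta. Genes of later germ cells, such as *Ddx4* and *Dazl*, are switched on after arrival there.

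The promoters of these genes differ in their density of CpG, the dinucleotide at which mammalian DNA is methylated. RefSeq windows of 300 bases, from 250 before to 50 after a transcription start on GRCm38.p6, were found for 8 of the 10 genes (not for *Dppa5a* and *Dppa3*). *Pou5f1* and *Nanog* are shown as factors of the pluripotency network, and *Ddx4* and *Dazl* as genes of later germ cells. The capitals mark CpG.
Pou5f1 (chr17:35505782-35506081, plus strand): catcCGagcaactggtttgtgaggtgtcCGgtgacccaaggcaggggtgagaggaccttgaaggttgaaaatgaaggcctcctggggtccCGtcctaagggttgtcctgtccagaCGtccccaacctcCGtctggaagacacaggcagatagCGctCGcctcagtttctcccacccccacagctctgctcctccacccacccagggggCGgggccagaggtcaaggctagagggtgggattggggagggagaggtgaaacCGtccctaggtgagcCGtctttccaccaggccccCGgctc
Nanog (chr6:122707239-122707538, plus strand): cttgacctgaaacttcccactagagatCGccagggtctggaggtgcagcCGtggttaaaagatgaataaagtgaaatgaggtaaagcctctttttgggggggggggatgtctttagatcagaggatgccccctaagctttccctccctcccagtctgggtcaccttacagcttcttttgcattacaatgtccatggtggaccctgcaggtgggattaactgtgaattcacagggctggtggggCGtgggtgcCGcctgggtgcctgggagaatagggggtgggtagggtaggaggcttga
Ddx4 (chr13:112652261-112652560, minus strand): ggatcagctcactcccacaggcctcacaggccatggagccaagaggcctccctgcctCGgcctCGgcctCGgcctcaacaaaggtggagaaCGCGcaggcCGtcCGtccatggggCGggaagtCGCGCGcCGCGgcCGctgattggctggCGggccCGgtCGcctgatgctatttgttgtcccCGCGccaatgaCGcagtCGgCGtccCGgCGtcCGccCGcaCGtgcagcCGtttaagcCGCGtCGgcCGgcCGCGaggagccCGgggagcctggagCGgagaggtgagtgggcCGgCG
Dazl (chr17:50293571-50293870, minus strand): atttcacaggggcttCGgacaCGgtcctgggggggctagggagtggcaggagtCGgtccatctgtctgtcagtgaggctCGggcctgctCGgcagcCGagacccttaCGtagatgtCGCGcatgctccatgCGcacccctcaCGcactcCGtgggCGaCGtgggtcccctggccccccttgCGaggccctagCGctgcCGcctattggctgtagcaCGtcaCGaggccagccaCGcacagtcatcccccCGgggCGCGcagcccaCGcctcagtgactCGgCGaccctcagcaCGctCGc
The *Ddx4* window held 38 CpG, a number reached by 4.95% of 32,851 windows of this length, and that of *Dazl* held 28 (14.2% of windows). *Pou5f1* had 11 CpG and *Nanog* had 4, against a median of 7 over all windows. Of the others, *Sox2* had 27, *Utf1* 17, *Zfp42* 11 and *Nanos3* 3. The start used for *Nanos3* lies 8,665 bases from that of the gene in GENCODE and the one for *Sox2* 410 bases, so their windows hold for the RefSeq start only. *Pou5f1* and *Nanog* each have 2 RefSeq windows, and the one nearest to the GENCODE start is shown. The octamer ATTTGCAT, as an exact match on either strand, was found among the members in the *Zfp42* window alone and in 1.74% of all windows. Near matches were not counted, such as TTTTGCAT in the *Nanog* window, which differs in its first letter. A Sox motif, ACAATG, lay in the windows of *Nanog* and *Nanos3* and in 12.6% of all windows, and the E-box CACGTG lay in that of *Ddx4* and in 7.15% of all windows. No methylation or binding was measured in these cells, so a match is a description of the letters only.

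The level of a gene is given as its unique molecular identifiers (UMIs, molecules captured) per 10,000 UMIs of a group of cells. The 3′ chemistry counts a transcript at its end, so these values are numbers of captured molecules and do not depend on gene length. Intervals are exact at the 95% level, Poisson for levels and Clopper–Pearson for shares, and cover counting error only. Fewer cells with a gene and less RNA per cell cannot be told apart in a level, so shares of cells are given as well. Shares depend on depth, and the libraries differed in it, with medians of 23,651, 13,440.5 and 38,312 UMIs per cell for suffixes 1, 2 and 3. Shares were therefore taken after 5,000 UMIs had been drawn from each cell, and for each member the share of cluster 3 at deposited depth is given too. In cluster 3 the medians of the same libraries were 40,205, 11,625 and 54,048.5 UMIs, over 69, 138 and 32 cells. Suffix 2, the shallowest library, thus held most cells of this cluster.

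All 10 genes had their highest level in cluster 3. For each of them the lowest library of cluster 3 lay above the highest library of every other cluster. *Dppa5a* made up 50.2% of the UMIs of the 10 genes in cluster 3, *Dppa3* 19.7%, *Utf1* 10.6%, *Pou5f1* 9.53% and *Sox2* 6.36%, and the other 5 genes shared the rest.

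**Figure D1:**
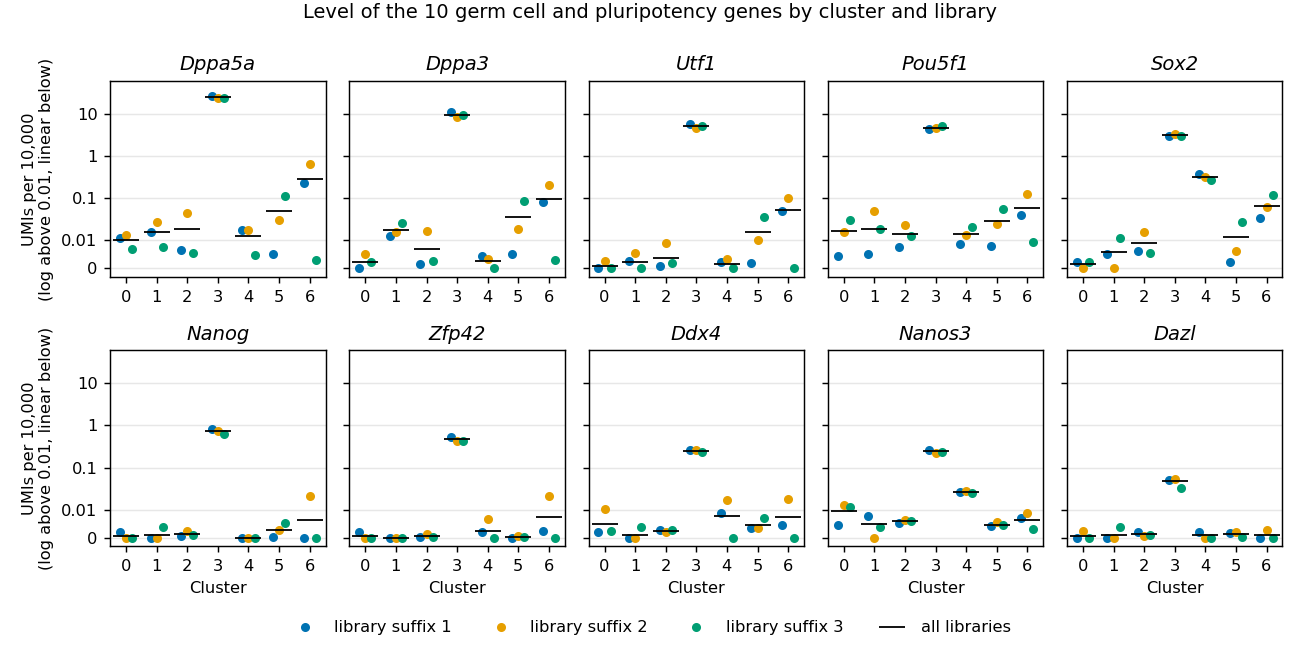
Level of each gene (vertical axis, UMIs per 10,000, logarithmic above 0.01 and linear below) in clusters 0 to 6 (horizontal axis). Coloured points are the 3 library suffixes and black bars are all libraries together. In each panel the 3 points of cluster 3 lie above those of all other clusters, *Sox2* and *Nanos3* have a raised level in cluster 4, and the spread between libraries in cluster 6 is wide for *Dppa5a* (0.00318–0.644).

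Among the genes best known from pluripotent cells, *Dppa5a* encodes an RNA-binding protein of embryonic stem cells and germ cells. Its level in cluster 3 was 26.6, 23.3 and 23.4 UMIs per 10,000 in libraries 1, 2 and 3, or 24.6 over all (24.2–24.9). Cluster 6 came next at 0.292, with libraries from 0.00318 to 0.644 and 0.130 without library 2, and the other clusters had 0.0103–0.0490. At 5,000 UMIs it was detected in 228 of 239 cells of cluster 3 (95.4%, 91.9–97.7%) and in 1.28% of all other cells, and at deposited depth in 99.2% and 2.92%. *Dppa3* was next to it at 5,000 UMIs, with 1 cell fewer. In the 173 cells with at least 10,000 UMIs, thinned to that depth, the order was reversed, with 98.8% for *Dppa5a* and 100% for *Dppa3*. Over all 239 cells at deposited depth *Dppa3* was at 97.5%, below *Dppa5a*. Within the last 300 bases of the *Dppa5a* transcript, a stretch that need not span all of them matches a transcript of *Pigp* at 95% identity or more. No such match was found for the other 9 members. *Pigp* itself had 0.423 UMIs per 10,000 in cluster 3 and 0.540 elsewhere, a log2 ratio of -0.35 (-0.52 to -0.19).

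*Pou5f1*, the POU-domain factor at the centre of the network, had 4.37, 4.65 and 5.08 UMIs per 10,000 in the 3 libraries of cluster 3 (4.66 over all, 4.50–4.82). Cluster 6 followed with 0.0576, with libraries from 0.00954 to 0.124 and 0.0271 without library 2. *Sox2*, its HMG-box partner, had 3.03, 3.31 and 2.96 (3.11 over all, 2.98–3.24). *Sox2* lies within *Sox2ot*, a non-coding gene on the same strand that was not analysed here, and *Pou5f1* overlaps *Gm19553* on the opposite strand. At 5,000 UMIs *Pou5f1* was found in 80.3% of the cells of cluster 3 (74.7–85.2%) and *Sox2* in 69.5% (63.2–75.2%), against 0.899% and 0.931% of the cells outside it. At deposited depth the shares in cluster 3 were 92.1% and 87.4%.

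*Nanog*, a homeodomain factor of the same network, was less abundant, at 0.810, 0.751 and 0.640 UMIs per 10,000 in the libraries of cluster 3 (0.744 over all, 0.682–0.810). It was detected in 74 of 239 cells at 5,000 UMIs (31.0%, 25.2–37.2%) and in 66.1% at deposited depth, but in 0.0975% and 0.322% of the other cells. Cluster 4 had no *Nanog* UMI in 518 cells. *Utf1*, a chromatin-bound factor of pluripotent cells, had 5.68, 4.61 and 5.27 UMIs per 10,000 (5.19 over all, 5.02–5.36) and was detected in 81.6% of the cells of cluster 3 at 5,000 UMIs (76.1–86.3%). *Zfp42* (Rex1), a zinc-finger marker of naive pluripotency, had 0.544, 0.426 and 0.416 (0.468 over all, 0.419–0.521) and was detected in 16.7% (12.2–22.1%). At deposited depth *Utf1* was found in 91.2% of the cells of cluster 3, and *Zfp42* in 50.6% of them and 0.161% of the others.

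*Dppa3* (Stella), a protein of germ cells and oocytes that shields DNA from the oxidation of methylcytosine, was second to *Dppa5a*. Its libraries in cluster 3 were at 10.9, 8.31 and 9.54 UMIs per 10,000 (9.61 over all, 9.38–9.84), and cluster 6 followed with 0.0956, with libraries from 0.00318 to 0.201 and 0.0474 without library 2. At 5,000 UMIs it was detected in 227 of 239 cells of cluster 3 (91.4–97.4%) and 0.736% of the others, and at deposited depth in 97.5% of cluster 3. *Nanos3*, an RNA-binding protein needed for the survival of primordial germ cells, had 0.263, 0.227 and 0.240 (0.244 over all, 0.209–0.283). It was found in 12.6% of the cells at 5,000 UMIs (8.63–17.4%) and in 45.2% at deposited depth.

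Of the genes of later germ cells, *Ddx4* was near *Nanos3* in level and *Dazl* was the scarcest of the 10. *Ddx4* (Vasa), an RNA helicase of germ granules, had 0.263, 0.258 and 0.235 UMIs per 10,000 in the libraries of cluster 3 (0.254 over all, 0.218–0.293). It was detected in 10.5% of the cells at 5,000 UMIs (6.88–15.1%) and in 33.5% at deposited depth. *Dazl*, an RNA-binding protein of germ cells in the gonad, had 14, 14 and 6 UMIs in the 3 libraries, which is 0.0518, 0.0547 and 0.0320 per 10,000 (0.0477 over all, 0.0330–0.0666). It was detected in 7 cells at 5,000 UMIs (2.93%, 1.19–5.94%) and in 25 cells at deposited depth (10.5%), against 0.0325% and 0.322% of the other cells. Its highest value in a cell was 4 UMIs.

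The libraries of cluster 3 were compared at equal depth. At 5,000 UMIs in every cell, *Pou5f1* was detected in 88.4%, 74.6% and 87.5% of the cells of cluster 3 in libraries 1, 2 and 3, and *Utf1* in 87.0%, 76.1% and 93.8%. Library 2 was lowest for both, with intervals that overlapped those of the other libraries. For *Dppa5a* the 3 shares lay between 94.9% and 96.9%, and for *Dppa3* between 94.2% and 96.9%.

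**Figure D2:**
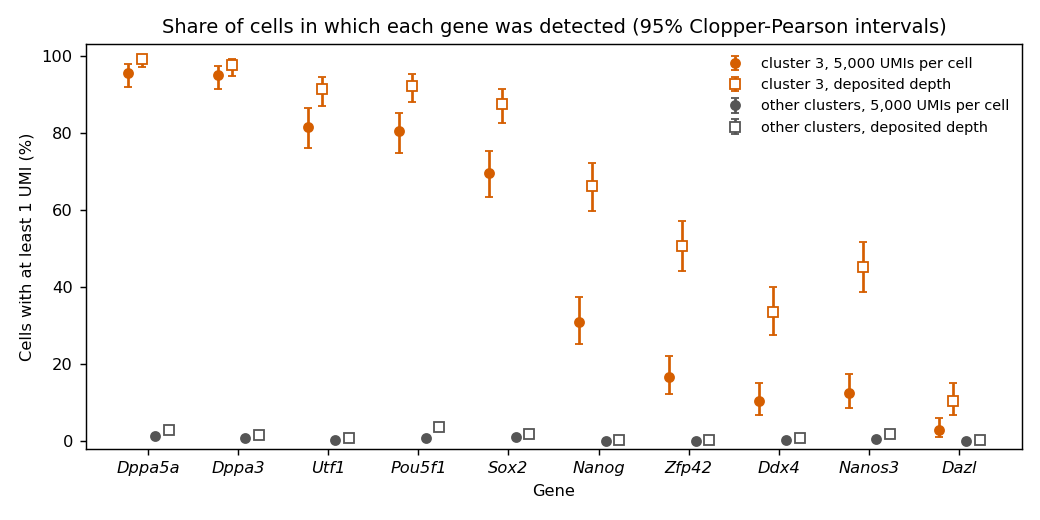
Share of cells with at least 1 UMI of each gene (vertical axis, %) in cluster 3 (orange) and in all other clusters together (grey), at 5,000 UMIs per cell (filled circles) and at deposited depth (open squares), with 95% Clopper–Pearson intervals. The share in cluster 3 falls from 95.4% for *Dppa5a* to 2.93% for *Dazl* at 5,000 UMIs, and at that depth no gene exceeds 1.28% of the other cells.

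The clusters next in order differed between genes. Cluster 6 was second for 6 members, cluster 4 for *Sox2*, *Nanos3* and *Ddx4*, and cluster 5 for *Dazl*. For 8 members the libraries of the clusters at the second and the third place overlapped, so that their order below cluster 3 is not fixed by these data. The exceptions were *Sox2* and *Nanos3* in cluster 4.

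*Sox2* in cluster 4 was at 0.324 UMIs per 10,000, with libraries from 0.275 to 0.380, above the 0.0330–0.118 of cluster 6. It was carried by 70 of 518 cells (13.5%, 10.7–16.8%) at deposited depth and by 8.79% at 5,000 UMIs (6.48–11.6%). *Pou5f1* was detected in 2.86% and *Dppa5a* in 4.29% of these 70 cells, near the shares in the rest of cluster 4 (3.35% and 2.68%). *Sox3*, a close relative of *Sox2*, was detected in 35.7% of them and in 1.34% of the other cells of cluster 4. *Tubb3*, a neuronal tubulin, was found in 52.9% against 17.9%, and *Col1a1*, a fibroblast collagen, in 21.4% against 69.2%. The median depth was 23,056 UMIs in the cells with *Sox2* and 19,269 in the others, and no test was made of these shares, which were looked at after the *Sox2* values had been seen. *Nanos3* in cluster 4 was at 0.0262 UMIs per 10,000 (libraries 0.0254–0.0275) on 31 UMIs.

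The genes occurred together in the same cells. In cluster 3 the median cell had 5 of the 10 genes at 5,000 UMIs, and 157 of 239 cells (65.7%, 59.3–71.7%) had 5 or more. At deposited depth the median was 7, and 209 cells (87.4%) had 5 or more, 11 of them all 10. By library, 73.9%, 60.1% and 71.9% of the cells of suffixes 1, 2 and 3 had 5 or more at 5,000 UMIs. Outside cluster 3, 88.6% of the cells had no UMI of any member at deposited depth, and 10.0% had 1 member.

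**Figure D3:**
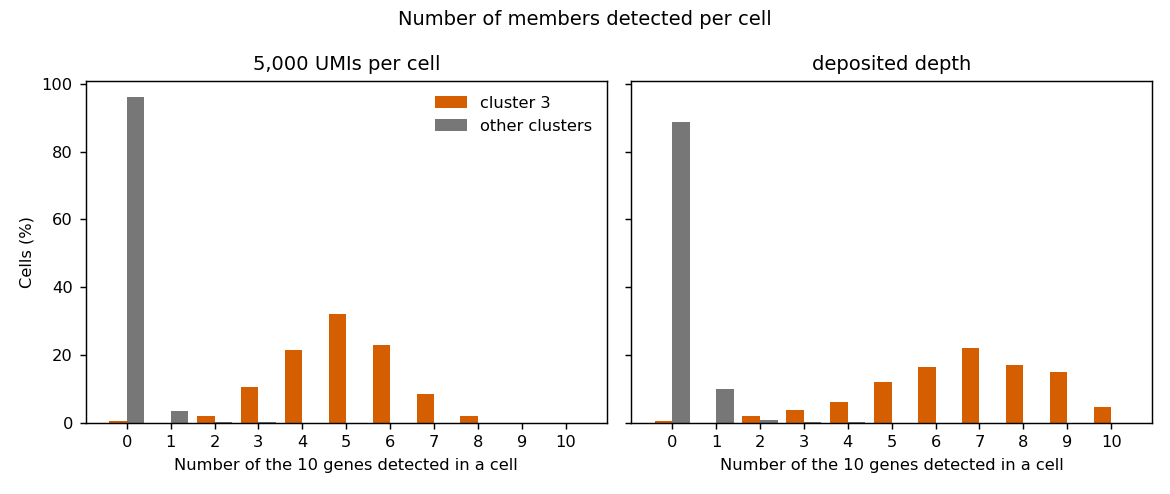
Number of the 10 genes with at least 1 UMI in a cell (horizontal axis) against the share of cells (vertical axis, %), in cluster 3 (orange) and the other clusters (grey), at 5,000 UMIs per cell (left) and at deposited depth (right). Cluster 3 centres on 5 genes at 5,000 UMIs and on 7 at deposited depth, while most other cells have none (88.6% at deposited depth).

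Within cluster 3 the cells with a scarce gene mostly had the abundant ones too. Of the 25 cells with *Ddx4* at 5,000 UMIs, 25 also had *Dppa5a*, 23 had *Dppa3* and 20 had *Pou5f1*. The product of the genes' shares gave 23.8, 23.7 and 20.1 cells, so these overlaps were near those of the shares alone. All 7 cells with *Dazl* had *Dppa5a* and *Utf1*, against 6.68 and 5.71 from the product of the shares. *Dppa3* was found in 5 of them and *Pou5f1* in 4, against 6.65 and 5.62. No cell had both *Ddx4* and *Dazl* at this depth, and 16 cells had both at deposited depth. Over the 239 cells, Pearson's r of log-scaled counts at 5,000 UMIs ran from -0.12 to 0.30 with a median of 0.06 for the 45 pairs, and the highest was that of *Dppa5a* with *Dppa3* (0.04, 0.41 and 0.21 in the 3 libraries). Such values are weak, the cells share their libraries, and no relation is read from them.

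The pairs *Nanos3* with *Sox2* and *Nanog* with *Utf1* are given in full, a choice made after the values had been seen. At 5,000 UMIs, 29 of 30 cells with *Nanos3* had *Sox2* (96.7%, 82.8–99.9%), against 65.6% of the cells without it (58.7–72.0%). At deposited depth it was 107 of 108, against 77.9%. This was the largest such difference among the 90 ordered pairs at 5,000 UMIs. *Utf1* was found in 67 of 74 cells with *Nanog* at 5,000 UMIs (90.5%, 81.5–96.1%) and in 77.6% of the cells without it (70.4–83.7%), and in 158 of 158 against 74.1% at deposited depth. The intervals of the second pair overlapped at 5,000 UMIs, and at deposited depth the cells with a scarce gene tend to be the deeper ones.

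**Figure D4:**
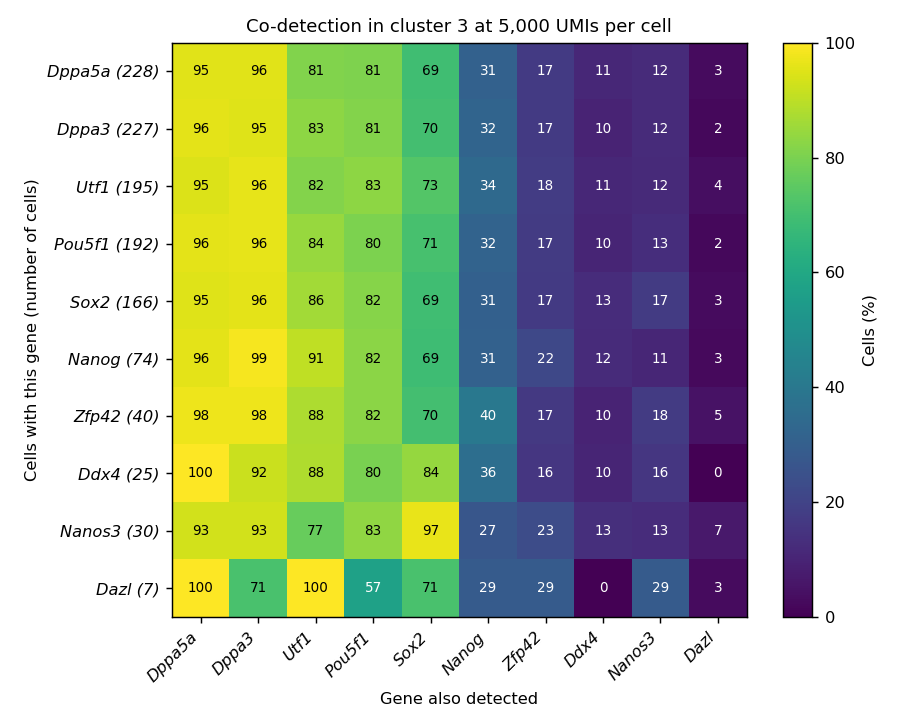
Share of the cells of cluster 3 with the gene of a row that also had the gene of a column, at 5,000 UMIs per cell (colour and number, %). Numbers in brackets are cells with the gene, and the diagonal is its share of all 239 cells. The column of *Dppa5a* is at 93% or more in every row, and 97% of the 30 cells with *Nanos3* also had *Sox2*.

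At deposited depth, the cells of cluster 3 with few members came from library 2, the shallowest. At 5,000 UMIs, 5 or more members were found in 51 of 69, 83 of 138 and 23 of 32 cells of libraries 1, 2 and 3. Cells with fewer members thus occurred in each library at equal depth. Of the 30 cells of cluster 3 with 0 to 4 members at deposited depth, 30 carried suffix 2, and their median depth was 6,672.5 UMIs, against 17,284 in the 121 cells with 5 to 7 members and 46,214.5 in the 88 cells with 8 to 10. Their low member levels are part of how they were picked. They also had more endothelial transcripts. *Cdh5* (VE-Cad) was at 3.06 UMIs per 10,000 in them and at 0.653 and 0.512 in the other groups, and *Cldn5*, a tight junction protein of endothelium, at 3.95 against 0.766 and 0.707. The germ cell genes *Rhox9*, *Ifitm1* and *Tfap2c*, which are not members, were at 2.59, 5.08 and 0.706 in the 30 cells. They were at 6.83, 12.2 and 1.34 in the cells with 8 to 10 members. In cluster 2 of library 2 they were at 0.0147, 0.0600 and 0.00253. In 34 cells of suffix 2 with 5 or more members but under 10,000 UMIs (median 7,799.5), *Cdh5* was at 2.05, and in cluster 2 of that library at 4.73. Whether these UMIs came from the cells themselves or from free RNA was not tested.

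Outside cluster 3, several members in a cell were rare. Of 9,323 cells, 55 (0.590%) had 3 or more of the genes at deposited depth, 34 of them from cluster 2 and 13 from cluster 5. Clusters 6, 4 and 1 had 5, 2 and 1 of them, and cluster 0 had 0. Library 2 held 45 of the 55, which is 1.18% of its cells outside cluster 3, against 0.116% in library 1 and 0.291% in library 3. Their median depth was 10,460 UMIs, against 21,255.5 in the remaining cells, a contrast that mixes libraries and clusters of unequal depth. They were shallower than their cluster in clusters 2 (9,308.5 against 22,493) and 5 (10,460 against 36,065.5). In clusters 1 (9,437 against 7,875), 4 (30,171.5 against 19,475.5) and 6 (47,052 against 32,186) they were deeper. Scrublet called none of them a doublet, but it called 8 cells in the whole table.

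A small number of cells carried most member UMIs of clusters 5 and 6. These cells were picked for having 3 or more members. Their share of member UMIs, and the levels left without them, are thus partly set by that choice. In cluster 6, 5 cells held 306 of 314 *Dppa5a* UMIs, and the level of the other cells was 0.00765 UMIs per 10,000. In cluster 5, 13 cells held 254 of 299, which left 0.00742. Without the 55 cells, *Dppa5a* lay between 0.00742 and 0.0143 in the 6 clusters and *Pou5f1* between 0.0104 and 0.0190. *Sox2* in cluster 4 kept 374 of 384 UMIs. The 34 cells of cluster 2 had a median depth of 9,308.5 UMIs and endothelial transcripts at the level of their cluster, with *Emcn*, an endothelial sialomucin, at 8.08 UMIs per 10,000 in them and 7.81 in the rest of cluster 2. Among all 55 cells the median was 7 member UMIs and the highest 310, against a median of 116 in a cell of cluster 3.

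Cluster 3 was then compared with all other clusters for each of 17,656 genes with at least 10 UMIs. A gene was counted as higher or lower where its ratio was 2-fold or more in each of the 3 libraries, which held for 1,652 genes (9.36%) and 4,720 genes (26.7%), respectively. The count of lower genes held 1,962 without a UMI in cluster 3, and when fewer than 3 UMIs in a group were taken as 3, a rule added after the data had been seen, 2,895 genes (16.4%) remained lower and 1,652 higher. All 10 members were higher, which their choice makes likely, and nothing is read from that count. Their log2 ratios ran from 5.17 (*Nanos3*, 4.86–5.49) to 9.37 (*Dppa5a*, 9.27–9.46). The median log2 ratio was 0.06 over all genes tested and 8.30 over the members. Other gene lists, chosen with earlier results of these cells known, are given against the same shares. Since the clusters were made from these counts, they describe cluster 3 and are no test of it.

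Most genes of the naive pluripotency network were high in cluster 3. Of 20 genes, 19 had enough UMIs, of which 15 were higher, 2 lower and 2 neither, with a median log2 ratio of 5.94. *Tdh*, the threonine dehydrogenase of embryonic stem cells, was at 3.47 UMIs per 10,000 against 0.00828 elsewhere, and *L1td1*, an RNA-binding protein, at 2.34 against 0.00489. *Tcl1*, a co-activator of AKT, had a log2 ratio of 9.42 (8.83–10.1) and *Dppa2* of 9.19 (8.53–9.95). *Esrrb*, a nuclear receptor, was at 0.276 against 0.00208, and *Klf5* at 0.570 against 0.0159. By contrast, *Klf4* was lower (0.128 against 0.389), *Tbx3* was lower (0.0238 against 0.112), and *Klf2* was near equal (3.36 against 3.12). *Fgf4*, a growth factor of the inner cell mass, had 1 UMI in cluster 3.

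Genes of primed or formative cells showed both directions. Of 9 genes tested, 3 were higher (*Nodal*, *Fgf5* and *Sox3*), 3 lower (*Dnmt3b*, *Zic2* and *T*) and 3 neither. These are 33.3% higher and 33.3% lower, against 9.36% and 26.7% of all genes. The share of lower genes is near that of all genes, so nothing is read from it. *Nodal*, a TGF-β family ligand, was at 0.203 UMIs per 10,000 against 0.0180. *Otx2*, a homeodomain factor that marks the exit from naive pluripotency, had 8 UMIs in cluster 3 and none elsewhere. *T* (brachyury) had no UMI in cluster 3, which allows up to 0.00420 per 10,000, against 0.0133 elsewhere.

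Genes of primordial germ cells were mostly higher too, 14 of 20, with 2 lower and a median log2 ratio of 4.65. *Tfap2c* and *Prdm14*, transcription factors that specify germ cells, had log2 ratios of 8.48 (8.18–8.80) and 8.54 (7.65–9.58), and *Prdm1* (Blimp1) of 2.05 (1.87–2.23). *Dnd1*, an RNA-binding protein that protects germ cells, was at 2.32 UMIs per 10,000 against 0.0144. *Rhox9* and *Rhox6*, X-linked homeobox genes, were at 6.18 and 4.93, against 0.0106 and 0.00832, and were detected in 80.8% and 76.6% of the cells of cluster 3 at 5,000 UMIs. *Ifitm1* was at 12.9 against 0.535, and *Alpl*, the alkaline phosphatase used to stain germ cells, at 1.69 against 0.0202. *Epcam*, an adhesion molecule, was at 2.46 against 0.0510. *Ifitm3* was higher in cluster 3 than in the others together (14.1 against 2.01) but reached 22.0 in cluster 1, and *Kit*, the receptor of SCF, was at 0.713 in cluster 3 and 1.11 in cluster 1. *Fut4* and *Itga6* were the 2 lower genes, at 0.00280 against 0.0334 and 0.251 against 1.24. *Cxcr4*, *Tfap2a*, *Sall1* and *Hdac5* were neither.

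Genes that guard the germline genome or act in meiosis were low in level but higher in cluster 3. Of 25, 22 were tested, 17 were higher and none lower, with a median log2 ratio of 6.21. Their summed level was 2.66 UMIs per 10,000 in cluster 3 (libraries 2.60–2.73) and at most 0.125 in any other cluster. *Fkbp6*, of the piRNA pathway, was the most abundant at 0.890 against 0.00257, followed by *Tdrd12* at 0.270. *Mov10l1*, a piRNA helicase, had 51 UMIs in cluster 3 and 2 elsewhere. The cohesin subunits of meiosis *Smc1b* and *Stag3* had 0.217 and 0.198, and *Sycp3*, of the synaptonemal complex, 0.0547 on 39 UMIs. *Stra8*, the retinoic acid target at the entry to meiosis, had no UMI in cluster 3, which allows up to 0.00420 per 10,000. It was found in 0.0536% of the other cells at deposited depth, too few to show a difference. *Dpep3* had no UMI in any cell.

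Enzymes of DNA methylation gave another picture. Of 8 genes, 1 was higher (12.5%), 5 lower (62.5%) and 2 neither, against 9.36% higher and 26.7% lower of all genes. *Tet1*, which oxidizes methylcytosine, was the higher gene, at 1.02 UMIs per 10,000 against 0.0988 (log2 ratio 3.37, 3.24–3.49). *Uhrf1*, which guides maintenance methylation, was lower (0.265 against 1.17), as were *Tet3* (0.0547 against 0.513), *Dnmt3a* (0.248 against 0.592) and *Dnmt3b* (0.0939 against 0.380). *Dnmt1* was near equal at 1.52 and 1.43. *Tet2* was neither, and was detected in 5.44% of the cells of cluster 3 and 9.91% of the others at 5,000 UMIs. *Dnmt3l* was counted as lower with no UMI in cluster 3 and 17 elsewhere, which is too few to show a difference at this depth. The 9 genes of the 2-cell stage, *Zscan4c* among them, had no UMI in cluster 3, and 8 of them had none in any cell.

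**Figure D5:**
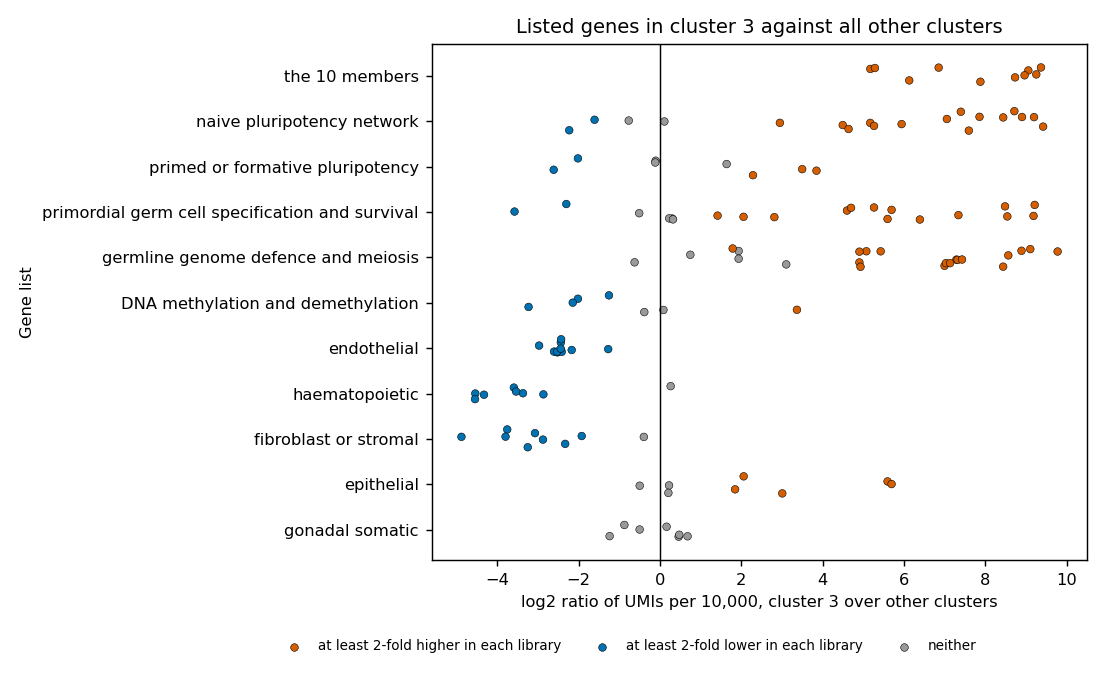
Log2 ratio of UMIs per 10,000 in cluster 3 over all other clusters (horizontal axis) for the genes of 11 lists (vertical axis). A point is a gene, orange where it was at least 2-fold higher and blue where it was at least 2-fold lower in each of the 3 libraries, and grey otherwise. Genes without a UMI in either group are not drawn. The members and the naive, germ cell and germline lists lie mostly to the right, and the 10 endothelial genes to the left (median -2.44).

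Cluster 3 was checked against markers of the sorted cell type. All 10 endothelial genes were lower in it, with a median log2 ratio of -2.44, and their summed level was 6.32 UMIs per 10,000 (libraries 5.25, 9.53 and 3.47), against 42.8–61.9 in clusters 0, 1 and 2. The libraries of clusters 4, 5 and 6 (4.81, 5.74 and 7.90 over all) lay within the range of those of cluster 3. *Cdh5* was detected in 31.0% of the cells of cluster 3 at 5,000 UMIs (25.2–37.2%), but *Pecam1* (CD31) in 48.1% (41.6–54.7%) and in 88.3% at deposited depth. *Pecam1* was at 1.14 UMIs per 10,000 against 2.75 elsewhere. Of the haematopoietic genes 7 of 8 were lower, with *Ptprc* (CD45) at 0.0140, and of the fibroblast genes 9 of 10, with *Pdgfrb* at 0. Over all genes 26.7% were lower. The haematopoietic genes summed to 0.502 in cluster 3 (libraries 0.329–0.704), 0.354 in cluster 2, 0.363 in cluster 4 and 1.40–13.2 elsewhere. The fibroblast genes summed to 1.36 (libraries 1.14–1.60), 0.686 in cluster 5, 0.657 in cluster 6 and 1.44–26.3 elsewhere. Cluster 3 was thus not below every other cluster for these lists. *Myb* and *Fn1* of these lists were detected more often in cluster 3 at 5,000 UMIs. They were found in 11.3% and 46.0% of the cells of cluster 3, against 4.99% and 39.1% elsewhere. No gene of 8 from gonadal somatic cells was higher, which is near the 9.36% of all genes, so nothing is read from that count. Of these genes 7 were neither, and the median log2 ratio was 0.31, against 0.06 over all genes. *Amh* was counted as lower, with no UMI in cluster 3 and 27 elsewhere, too few to show a difference. Of the epithelial genes, 5 of 8 were higher, *Epcam*, *Cdh1* and the keratin *Krt7* among them, while the keratins *Krt8*, *Krt18* and *Krt19* were neither. The summed level of these genes was 3.09 UMIs per 10,000 in cluster 3 (libraries 2.49–3.65). Cluster 4 had a higher one, 4.64 (libraries 3.09–6.23).

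*Nanog* and *Dppa3* lie near each other on chromosome 6, at chr6:122707489-122714633 and chr6:122626410-122630272 (GRCm38), with 77.2 kb between them. Their neighbours did not move together. *Gdf3*, a TGF-β family ligand 16.3 kb from *Dppa3*, was higher in cluster 3 (0.737 UMIs per 10,000 against 0.0327), and *Slc2a3*, a glucose transporter 13.2 kb from *Nanog*, was also higher (1.04 against 0.255), although it reached 2.45 in cluster 6. *Apobec1* was lower (0.00841 against 0.0631), and *Foxj2* and *Necap1* were neither.

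Genes with a pattern most like the summed level of the members were sought over the 21 groups of cluster by library, among 7,601 genes with at least 0.1 UMIs per 10,000 in cluster 3. The closest were *Gm32585*, *Tfap2c*, *L1td1*, *Tdh* and *Phlda2*, with Pearson's r on the log2 scale from 0.96 to 0.98. They were at 0.422, 1.37, 2.34, 3.47 and 3.37 UMIs per 10,000 in cluster 3, in that order. The groups of a cluster share their definition, and cluster 3 alone sets most of such a value. Over the 239 cells of cluster 3 at 5,000 UMIs, detection of *Dppa5a* went most with that of *Hspa4*, *Rhox9*, *Uqcr10*, *Ldhb* and *Bsg* (phi 0.20–0.27), which is weak and rests on 11 cells without *Dppa5a*.

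Sex-linked transcripts, which played no part in the choice of the genes, were measured in the same cells. A UMI of any of the Y-linked genes *Ddx3y*, *Eif2s3y*, *Kdm5d* and *Uty* was found in 131 of 239 cells of cluster 3 at deposited depth (54.8%, 48.3–61.2%) and in 53.1–62.3% of the cells of the other clusters. At 5,000 UMIs it was 29.3% (23.6–35.5%) in cluster 3 and 26.2–45.9% elsewhere. Thus Y-linked transcripts were present in every cluster, although the hearts were stated to be female, and their origin was not tested. The members were detected on both sides. In the 131 cells with a Y-linked UMI (median 31,310 UMIs) *Pou5f1* was at 4.70 UMIs per 10,000 and *Dppa3* at 9.35, and in the 108 cells without (median 17,693 UMIs) at 4.60 and 10.0. *Dppa5a* was at 27.5 and 19.9, and *Ddx4* at 0.307 and 0.170.

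*Xist*, the RNA that coats the inactive X chromosome, was lower in cluster 3. Its level there was 0.640 UMIs per 10,000 and that of the other cells 2.04, and it was detected in 23.8% of the cells at 5,000 UMIs (18.6–29.8%) against 23.9–43.4% in the other clusters. In cells without a Y-linked UMI at deposited depth, *Xist* was at 1.14 in cluster 3 (libraries 0.906, 1.45 and 1.09) and at 2.91–6.64 in the others. These cells hold some in which a Y-linked transcript was missed, and their number differs with depth between clusters.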

How the data were processed

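The authors processed 10x Genomics 3′ reads of 3 pools with Cell Ranger 3.1.0 on mm10 (GRCm38), merged the runs with a correction for batch, kept singlets, and deposited a table of UMI counts. They also deposited normalized values, which are a natural log, ln(1 + CPTT), where CPTT is a count per 10,000 UMIs of the cell, and which differed by at most 6.2e-15 from values recomputed here. Cluster numbers are the authors' Leiden clusters (cluster 3 and 6 others). The gene annotation used for counting is not given in the sources used here. Names came from GENCODE M21 for 27,645 of 27,998 identifiers, and 4 shared names were summed. The count table holds the 9,562 cells of the study, of which 9,472 had the 5,000 UMIs that its methods set as a minimum. Cells were not filtered further, and doublets called by Scrublet (scanpy 1.11.5, 8 cells, 0 in cluster 3) were kept. The 13 barcodes found under several suffixes concerned 26 cells, 0 of them in cluster 3.

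The 10 members and all gene lists were chosen with earlier results of these data known. With 1 pooled sample, no test was run. Cells were thinned without replacement to 5,000 UMIs, which left out 90 cells, none of cluster 3. Log2 ratios carry exact conditional binomial intervals. In list medians, fewer than 3 UMIs in a group were taken as 3. A 0 allows a level of up to 3 UMIs. Genes named are the members, the listed genes, and the 5 genes most like the members over groups and the 5 over cells, on log2(UMIs per 10,000 + 0.01) and on detection in 5–95% of cells. The lists of cardiomyocyte (0 of 6 higher, 3 lower) and neural genes (1 of 6 higher, 2 lower) were measured too, with *Nppa* and *Sox1* lower on no UMI in cluster 3, too few to show a difference. Near copies were sought with BLAST 2.17.0, and overlapping genes in GENCODE M21. The *Sox2ot* transcript around *Sox2* and 2 microRNA genes within *Nanos3* share their strand and were not analysed here. Alternatives changed depth, detection threshold, seed, libraries, fold and minimum count. The calling rule, thinning and intervals were tested on simulated data. Computations used Python 3.11.15, numpy 2.4.6, scipy 1.17.1 and pandas 2.3.3.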

Additional observations from a re-analysis of the deposited data

How the results depend on the processing

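The number of members highest in cluster 3 was 10 under each alternative (the mean of the cells' CPTT, the deposited normalized values, and each library left out), and all 10 were higher than in the other clusters by 2-fold in each library except that with a minimum of 100 UMIs *Dazl* was not tested. Between 5 and 7 members were found in over 50% of the cells of cluster 3, depending on depth and threshold. The share of these cells with 5 or more members was 65.7% at 5,000 UMIs, 93.1% at 10,000 UMIs (173 cells, 78 of them from library 2), 87.4% at deposited depth, and 72.4% there with at least 2 UMIs of a member. Leaving out each library in turn gave 62.4–73.3%, the highest without library 2. The number of genes higher in cluster 3 was 1,092 with at least 100 UMIs, 981 at 4-fold, 2,775 over all libraries at a time and 1,089 against cluster 4. The number of lower genes was 4,720, and 2,895 with fewer than 3 UMIs in a group taken as 3, an alternative chosen after seeing the data, under which *Dnmt3l*, *Amh*, *Nppa* and *Sox1* were the 4 list genes that lost their call. Cells outside cluster 3 numbered 127 with 2 or more members and 30 with 4 or more. The share of cells of cluster 3 with a Y-linked UMI was 54.8% at deposited depth. Of 80 alternative values for the shares of single members, 34 left the interval of the main value, and 32 of these came from another depth or threshold. No paired analysis was possible because the samples form 1 group and no test was run, and cluster 3 was instead compared with the other clusters within each library. Depth limits the scarce genes most. *Dazl* rests on 34 UMIs and *Nanos3* on 174 in cluster 3, and the origin of isolated UMIs elsewhere was not tested.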

Other observations

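Several genes of the pluripotency and germ cell lists were also found outside cluster 3, where the 10 members were rare. *T* (brachyury) had 117 of its 327 UMIs in cluster 0, at 0.0930 UMIs per 10,000, and 175 in the larger cluster 2, at 0.0125. *Gdf3* had 725 UMIs in cluster 5, at 0.119 UMIs per 10,000, more UMIs in all than the 526 in cluster 3, where it was at 0.737. *Sall4*, a zinc-finger factor of stem and germ cells, was detected in 80.3% of the cells of cluster 3 and 14.6% of the others at deposited depth, with 0.197 UMIs per 10,000 in cluster 0. *Lin28a*, an RNA-binding protein that blocks the let-7 microRNAs, was at 0.472 UMIs per 10,000 in cluster 3 and 0.0613 outside it, while its relative *Lin28b* was at 0.140 and 0.239 and was found in 36.2% of the cells outside cluster 3 at deposited depth. *Myb*, a factor of haematopoietic progenitors and part of the haematopoietic list, was at 0.235 in cluster 3 and 0.728 in cluster 5. At deposited depth it was detected in 40.2% of the cells of cluster 3 and 11.2% of the others. These values are given without a test, and their source was not tested.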
